A study of Mus musculus with 721 samples.

Results

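Ooep, Nlrp5, Tle6 and Padi6, genes of the subcortical maternal complex of the oocyte, and the paralogous genes Trim43a, Trim43b and Trim43c were followed through mouse development from the inner cell mass (ICM) at E3.5 to the early streak embryo at E6.5. These 7 genes were taken by name from the 24483 gene rows of the count table, and each name matched 1 row. They were chosen by their measured counts across stages in these same cells, so their levels by stage are given as a description with no test. Tests of the members are reported only between lineages of a stage and between plates of a stage, contrasts other than the stage pattern of that choice. The fit across stages took in all genes that passed its filter, members among them, but its results are reported for companion genes and for all genes as a whole. Members and lists of companion genes were chosen with earlier results of these data known, so these tests are not independent of those results.

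The subcortical maternal complex is an assembly of proteins stored in the oocyte and held beneath the cortex of the egg and of the outer blastomeres, and embryos of mothers lacking Nlrp5, Ooep, Tle6 or Padi6 are known to arrest during cleavage. Its transcripts are made during oocyte growth, and most maternal transcripts are degraded once the embryonic genome becomes active. Trim43 genes encode proteins of the tripartite motif family and are known for transcription from the embryonic genome before implantation.

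All embryos were C57Bl/6Babr wild type embryos, and polyadenylated RNA of cells placed one by one into wells was amplified by the G&T-seq form of Smart-seq2. ICMs at E3.5 and E4.5 had been freed of trophectoderm by immunosurgery. At E5.5 the epiblast had been parted from the visceral endoderm and the extraembryonic ectoderm had been removed, and at E6.5 the embryonic part of early streak embryos was dissociated. The table held 721 cells of 37 embryos, of which 99 cells of 10 embryos came from E3.5 and 250 cells of 13 embryos from E6.5, including 82 cells titled E6.75, and the rest from 5 embryos of E4.5 and 9 of E5.5. Embryos were counted as distinct combinations of titled day, plate name and embryo number, and an embryo spread over several of these is counted more than once. The paper reports fewer embryos over all stages than were counted here. Some were thus probably counted more than once, and n and the tests that use it may rest on too many embryos. Cells carry the label single or double, except for 5 cells of E5.5 labelled VE, and the doubles were 9 cells of E3.5, 38 of E4.5, 67 of E5.5 and 14 of E6.5. The 9 cells of plate P11.P6.P10 at E3.5 carry no embryo number and were treated as 1 embryo, although they may come from more, and 4 embryos at E6.5 have no plate name, being numbers 1 and 2 among both the cells titled E6.5 and those titled E6.75.

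The Trim43 rows need care, because their symbols and their positions do not pair as in the GENCODE M21 annotation of GRCm38. The row labelled Trim43c starts at 88581036 on chromosome 9, inside the gene annotated as Trim43a (chr9:88580891-88588819, plus strand). The row labelled Trim43a starts where the annotation has Trim43c (chr9:88839164-88848190, plus strand), and the row labelled Trim43b matches the annotated gene of that name (chr9:89084624-89092835, minus strand). Rows are called here by the label in the count table. The 3 coding sequences are 1335 bases long each. The rows labelled Trim43c and Trim43b were 98.4% identical over their aligned coding bases, the rows labelled Trim43c and Trim43a 96.9%, and the rows labelled Trim43b and Trim43a 97.8%. The stretch below covers 90 coding bases of each gene in GRCm38, from base 99 on, and is shown because it holds 8 of the 52 coding positions that differ between the loci, the positions by which a read can be placed. Capitals mark the differing positions, and each line reads along the coding strand.
Row labelled Trim43c, chr9:88582136-88582225, plus strand: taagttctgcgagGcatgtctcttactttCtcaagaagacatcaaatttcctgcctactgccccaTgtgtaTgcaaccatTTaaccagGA
Row labelled Trim43b, chr9:89091491-89091580, minus strand: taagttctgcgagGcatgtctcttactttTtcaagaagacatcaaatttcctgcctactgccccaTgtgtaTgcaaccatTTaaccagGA
Row labelled Trim43a, chr9:88840401-88840490, plus strand: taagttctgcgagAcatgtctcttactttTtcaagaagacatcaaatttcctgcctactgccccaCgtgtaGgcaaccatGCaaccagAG
In this stretch the rows labelled Trim43c and Trim43b part at 1 position, whereas the row labelled Trim43a differs from both at most of the marked positions.

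Reads were 100 bases long, so each transcript was cut into all windows of that length and each window was sought in the transcripts of every other gene. Every window of Ooep, Tle6 and Padi6 was found in 1 gene only. For Nlrp5 the share was 97.5%, the rest being shared with the pseudogene Nlrp5-ps. It was 85.2% for the row labelled Trim43c, 79.1% for the row labelled Trim43b and 67.95% for the row labelled Trim43a. Alignments with a mapping quality under 20 were dropped before counting, so reads from shared windows may be missing from the rows. The 3 Trim43 rows were also summed, but a sum does not bring dropped reads back. Levels of the rows and of their sum may thus be too low. As the share of unshared windows differs between the rows, the split between them is uncertain too. The row labelled Trim43a also lies opposite the transcript 9330159M07Rik, and these libraries do not mark the strand. The other genes stand apart on the genome, with Ooep at chr9:78376109-78378725 on the minus strand, Nlrp5 at chr7:23385889-23441922 on the plus strand, Tle6 at chr10:81590904-81601073 and Padi6 at chr4:140727355-140742643, both on the minus strand. Nlrp5 contains the miRNA gene Gm25196 on the same strand.

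Total counts per cell ran from 66896 to 3792936 with a median of 692863. Levels are depth-scaled counts (CPM, with TMM factors) of sums that pool 3 or more cells of 1 class and embryo, and are given as mean ± SD over embryos. Shares of cells with at least 1 count carry exact (Clopper-Pearson) 95% intervals, and were repeated with every cell thinned to 150000 counts, which left out 9 shallower cells. Reads were amplified and carry no molecular barcodes, so they cannot be taken as separate molecules, and these intervals cover counting error only. So do the limits given for a count of 0, which are 3 counts out of the cells looked at. Clusters were made without the 7 genes and without the companion genes listed further on. At E4.5 they parted 82 cells of primitive endoderm (PrE-like) from 23 that were epiblast-like. At E5.5 all but 8 cells were epiblast-like, 5 of these 8 being endoderm-like, the same 5 cells that are labelled VE, and 3 unnamed. At E6.5 they set 41 endoderm-like and 25 primitive streak-like cells beside the epiblast-like rest. A level over a sum mixes the share of cells with a transcript and the amount per cell, so both are given. Summed endoderm markers (18 genes) reached 14455 to 23818 CPM in PrE-like and 1858 to 3699 CPM in epiblast-like sums at E4.5. At E3.5 the cells were kept as 1 class, with 10 of 11 epiblast markers and 15 of 18 endoderm markers present. All 9 trophectoderm markers were also present at E3.5, at a summed 390 to 1873 CPM by embryo against 171.8 to 453 CPM in epiblast-like sums at E4.5. The same sum reached 974 to 2164 CPM in endoderm-like sums of E6.5, so it is not particular to trophectoderm. Before deposit the authors had removed trophoblast cells, those with more than 1 count in each of Elf5, Wnt7b and Tex19.1. Of the 99 E3.5 cells that remained, 2 had more than 1 count in all 3 genes. Taken singly, Tex19.1 passed this in all 99 cells, Wnt7b in 7 and Elf5 in 2. The part of remaining trophectoderm in the E3.5 levels was not tested.

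The 7 genes did not share a single course. The Trim43 rows were high at E3.5 and at or near 0 afterwards. Ooep was higher at E4.5 than at E3.5 and lay lower again at each later stage. Padi6 was seen mainly at E5.5, Tle6 was low throughout, and Nlrp5 had no count at E3.5. The values thus go against a single label of maternal transcripts lost after E3.5.

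**Figure D1:**
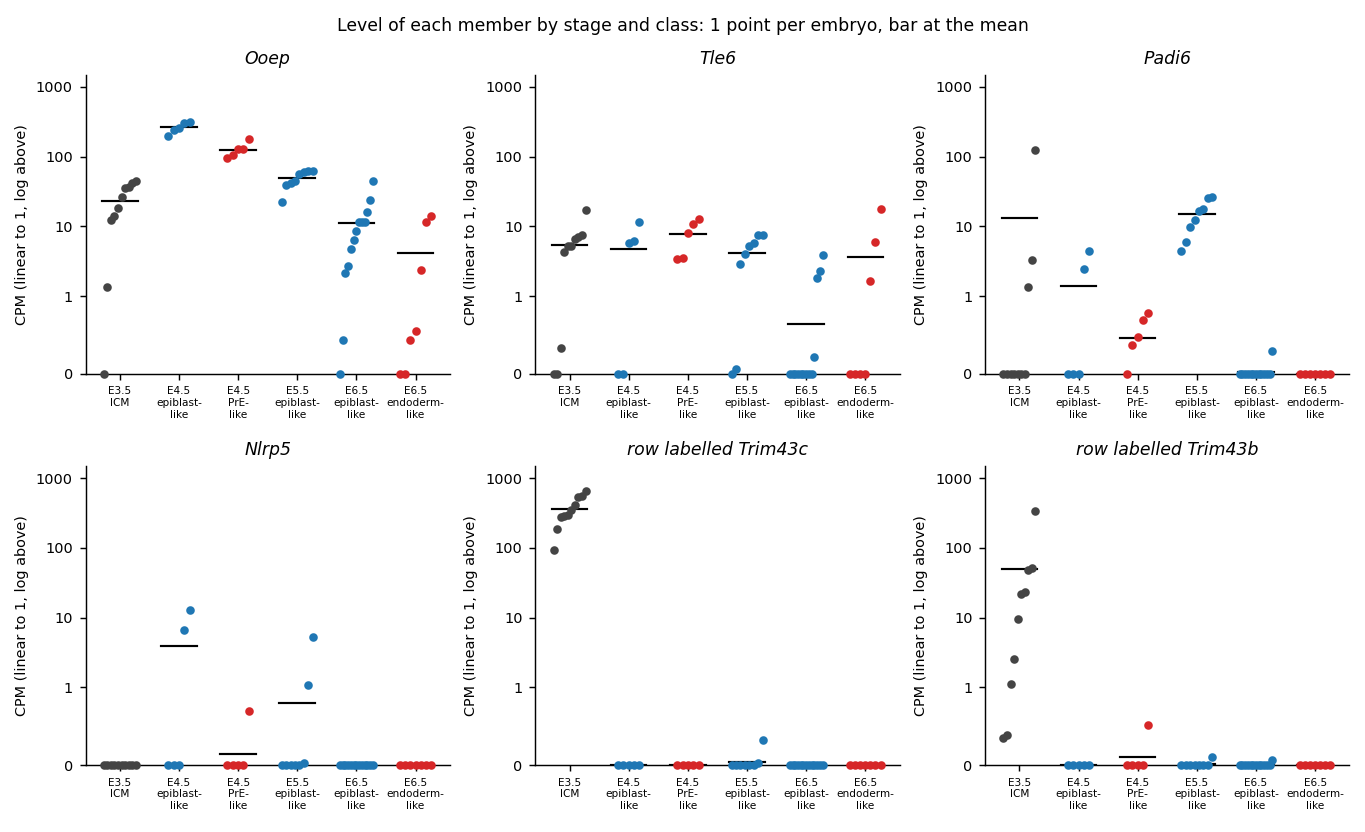
Level of each gene (CPM, axis linear up to 1 and logarithmic above) by stage and class, with 1 point per embryo and a bar at the mean, in dark grey for the E3.5 ICM, blue for epiblast-like and red for PrE-like or endoderm-like cells. The row labelled Trim43c sits between 93.1 and 649 CPM in the 10 E3.5 embryos and at or near 0 afterwards, whereas Ooep peaks in the epiblast-like cells of E4.5.

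At E3.5 the row labelled Trim43c was found in nearly every cell of the ICM. It had counts in 95 of 99 cells (95.96%, interval 89.98 to 98.9%), and in 94 of 99 after thinning. The level was 363.5 ± 173.7 CPM (SD, n = 10 embryos), from 93.1 to 649 with a median of 322. The lowest embryo was embryo 3 of plate P8 and the highest was embryo 1 of the same plate. Over individual cells the level ran from 0 to 1753 CPM, with quartiles of 124.9, 292 and 536. The 4 cells without a count were 2 of the 4 cells of embryo 4 on plate P8 and 2 of the 17 cells of embryo 7 on plate P9. Per kilobase of exon, the row labelled Trim43c stood at 183.2 ± 87.6 CPM, against 10.9 ± 7.69 for Ooep and 1.73 ± 1.63 for Tle6 in the same ICM cells.

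Trim43b, the second row in size, was carried by fewer cells and was far less even. It had counts in 34 of 99 cells at E3.5 (34.3%, interval 25.1 to 44.6%), or 26.3% after thinning. The level was 49.4 ± 102.3 CPM (n = 10), from 0.351 to 335.5 with a median of 15.6. The cells of plate P11.P6.P10 with no embryo number held the highest value, and without them the mean was 17.6 ± 20.3 CPM (n = 9). Every one of the 34 cells with Trim43b also had Trim43c, and Trim43b was the larger of the pair in 3 cells. The row labelled Trim43a had 45 counts in 14 cells in all, a level of 0.652 ± 0.719 CPM.

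Taken as one group, the Trim43 rows gave 413.5 ± 224.3 CPM at E3.5 (145.1 at the lowest, 339 at the median and 879 at the highest of 10 embryos). Of their 24915 counts, 87.1% lay on the row labelled Trim43c, 12.7% on Trim43b and 0.181% on Trim43a. The makeup differed between embryos, since the share of Trim43b ran from 0.0951% in embryo 2 of plate P8 to 38.2% in the cells of plate P11.P6.P10. Embryo 3 of plate P8, with the lowest sum, had 35.9% Trim43b. It also differed between cells of an embryo: of 91 cells with at least 20 Trim43 counts, 57 had none on Trim43b, 15 had over 10% and 3 had over 50%, the highest being 91.8%.

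**Figure D2:**
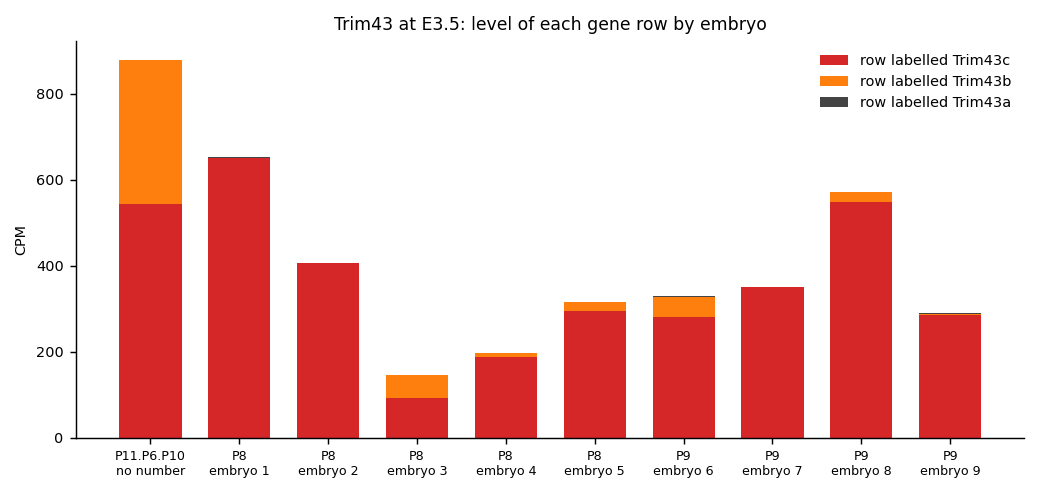
Trim43 level (CPM) in each of the 10 E3.5 embryos, with the height of each bar split into the rows labelled Trim43c (red), Trim43b (orange) and Trim43a (dark grey). All embryos carry Trim43c, and the cells of plate P11.P6.P10 stand out by 335.5 CPM of Trim43b.

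After E3.5 hardly a Trim43 count was left. The row labelled Trim43c had 0 counts in every cell of E4.5, which allows a share of up to 2.86% of cells. Against 3 counts over the group, its mean was at least 1937-fold lower in epiblast-like sums and at least 8380-fold lower in PrE-like sums than at E3.5. It had 4 counts in 2 epiblast-like cells at E5.5 (0.772%) and 0 in 250 cells at E6.5, where epiblast-like sums were at least 16777-fold lower. Of Trim43b, 3 counts remained in a PrE-like cell of E4.5, 4 in an epiblast-like cell of E5.5 and 2 in one of E6.5. The row labelled Trim43a had none at E4.5 or E5.5, but 47 counts in 1 endoderm-like cell at E6.5, of an embryo with too few such cells for a sum. E3.5 and E4.5 embryos have no plate name in common, so the step between them cannot be told apart from a difference between plates. Plate name P11.P6.P10 does occur at both E3.5 and E5.5, though the labels do not say whether it is the same plate. Under this name, Trim43c was at 542.9 CPM at E3.5, and at 0 and 0.0243 CPM in the epiblast-like sums of embryos 7 and 8 at E5.5.

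Ooep encodes a KH-domain protein of the complex. It was present in most E3.5 cells at a modest level and in every cell of E4.5 at a higher one. At E3.5 it had counts in 73 of 99 cells (73.7%, interval 63.9 to 82.1%; 67.7% thinned) and a level of 23.3 ± 16.4 CPM, from 0 to 44.7 with a median of 22.7. All cells of E4.5 had counts. The highest E3.5 embryo lay under the lowest E4.5 sum, a PrE-like one (95.2 CPM). How many of all genes part in this way was not counted. Higher levels at E4.5 were common, since 13.4% of 13528 genes were called higher in epiblast-like and 13.2% in PrE-like sums than at E3.5 (edgeR). Plate name P1 recurs from E4.5 on, though the labels do not say whether it is the same plate, and under it epiblast-like Ooep was at 199.9 and 253.8 CPM in E4.5 embryos, 39.5 CPM in the E5.5 embryo and 0 to 8.62 CPM in E6.5 embryos. The difference between E3.5 and E4.5 is among the values by which the set was chosen, and plates differ between the stages as well.

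Within E4.5, Ooep was higher in epiblast-like than in PrE-like cells. Epiblast-like cells of embryos 1 to 5 had 253.8, 199.9, 243.8, 317 and 302 CPM (mean 263.4 ± 47.2). PrE-like cells of the same embryos had 105.3, 95.2, 176.5, 127.04 and 127.9 CPM (mean 126.4 ± 31.4). Epiblast-like cells were higher in 5 of 5 embryos, and the groups did not overlap, though the share of all genes that part so was not counted. The log2 fold change was 1.09 (SE 0.221, adjusted p = 0.00361, edgeR quasi-likelihood fit, Benjamini-Hochberg adjusted). At an adjusted p of 0.05 and any fold change, 14.2% of the 10011 genes tested were called in this comparison. Ooep did not reach the log2 limit of 2 set for calls between these lineages, which 8.05% of genes passed. Over individual cells, quartiles were 206.5, 273 and 339 CPM in the 23 epiblast-like cells and 62.7, 113.7 and 166.7 CPM in the 82 PrE-like cells, and the lineages overlapped. Across the cells of E4.5, Ooep was set against the mean log2(CPM + 1) over the markers of a set. Spearman's rho was 0.396 for epiblast markers and -0.376 for endoderm markers, a description over cells that share embryos and plates.

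From E5.5 on, Ooep lay lower at each stage but remained in part of the cells. At E5.5 epiblast-like cells had 48.7 ± 14.2 CPM (n = 8), from 22.1 to 62.7 with a median of 50.3, and 86.1% of cells had counts (interval 81.3 to 90.1%; 80.6% thinned). The 3 embryos of plate P7.P4.P5 with a sum were the highest, between 60.9 and 62.7 CPM. Of 5 endoderm-like cells, all of 1 embryo, 2 had counts. At E6.5 epiblast-like cells had 11.1 ± 12.2 CPM (n = 13), from 0 to 44.6 with a median of 8.62. The highest embryo, embryo 5 of plate P2, owed 412 of its 632 counts to 1 cell, and without this embryo the mean was 8.29 CPM. At that stage 81 epiblast-like cells had counts (44.02%, interval 36.7 to 51.5%; 37.99% thinned), as did 15 of 25 primitive streak-like cells and 8 of 41 endoderm-like cells (19.5%, interval 8.82 to 34.9%). The E6.5 primitive streak-like sum, of 1 embryo, was at 3.42 CPM.

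At E6.5 endoderm-like sums had 4.14 ± 6.02 CPM (n = 7), and the difference from epiblast-like sums did not pass the test. Within embryos the endoderm-like sum was the lower in 6 of 7, and in the exception, embryo 2 of plate P1, the values were 0.438 and 0 CPM, from 1 count. Its log2 fold change was -1.27 (SE 1.12, adjusted p = 0.537, edgeR), in a comparison in which 9.55% of 10566 genes passed an adjusted p of 0.05 with a log2 change over 1. With the embryo as a block it was -2.99 (adjusted p = 0.280). Epiblast-like sums of the 9 E6.5 embryos on named plates and of the 4 without a plate name overlapped, with 12.2 against 8.52 CPM (difference 0.198 on the log2(CPM + 1) scale, exact two-sided permutation p = 0.839, smallest possible p 0.0028). The share of cells went the other way, 60.7% of cells without a plate name against 20.0 to 37.5% on plates P1 to P3, so no order is read from it.

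**Figure D3:**
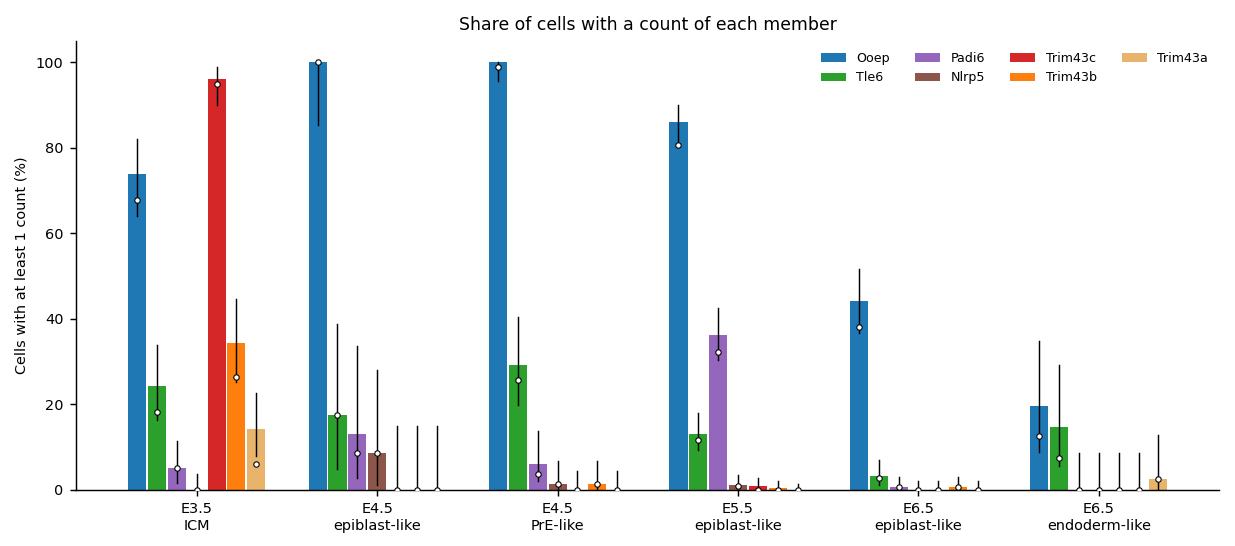
Share of cells with at least 1 count of each gene (%) by stage and class, with exact 95% intervals as lines and the share after thinning to 150000 counts as a white point. Trim43c fills 95.96% of E3.5 cells and no cell of E4.5, Ooep fills all E4.5 cells, and Padi6 reaches its largest share, 36.3%, in epiblast-like cells of E5.5.

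Padi6, a member of the peptidylarginine deiminase family needed for the cytoplasmic lattices of the oocyte, was rare before E5.5. At E3.5 it had 404 counts in 5 of 99 cells (5.05%, interval 1.66 to 11.4%), of which 336 lay in 1 cell labelled double of embryo 1 on plate P8. That embryo reached 125.3 CPM, and the other 9 averaged 0.525 CPM. At E4.5, 8 cells had counts (7.62%), with 1.39 ± 2.03 CPM in epiblast-like and 0.463 ± 0.307 CPM in PrE-like sums.

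At E5.5 Padi6 was seen in epiblast-like cells of all 8 embryos with a sum, at 14.9 ± 8.25 CPM, from 4.48 to 26.6 with a median of 14.5. Embryo 5 of plate P7.P4.P5 had too few such cells for a sum. Neither its 1 cell labelled single nor its 1 labelled double had a count. Counts were found in 94 epiblast-like cells (36.3%, interval 30.4 to 42.5%; 32.2% thinned) and in 0 of 5 endoderm-like cells, which allows a share of up to 60%. The lowest E5.5 embryo and the highest epiblast-like sum of E4.5 were both at 4.48 CPM, and the highest E3.5 embryo lay above all of E5.5. Under plate name P11.P6.P10 Padi6 was at 0 at E3.5 and at 26.6 and 4.48 CPM in the pair of E5.5 embryos. Counts were seen in 27.98% of cells labelled single and in 60.6% of those labelled double. Within embryos that had at least 4 doubles, the share was higher in doubles in 5 of 6, the exception being embryo 7 of plate P11.P6.P10 with 0 of 4. At E6.5 Padi6 was down to 12 counts in 2 of 250 cells.

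**Figure D4:**
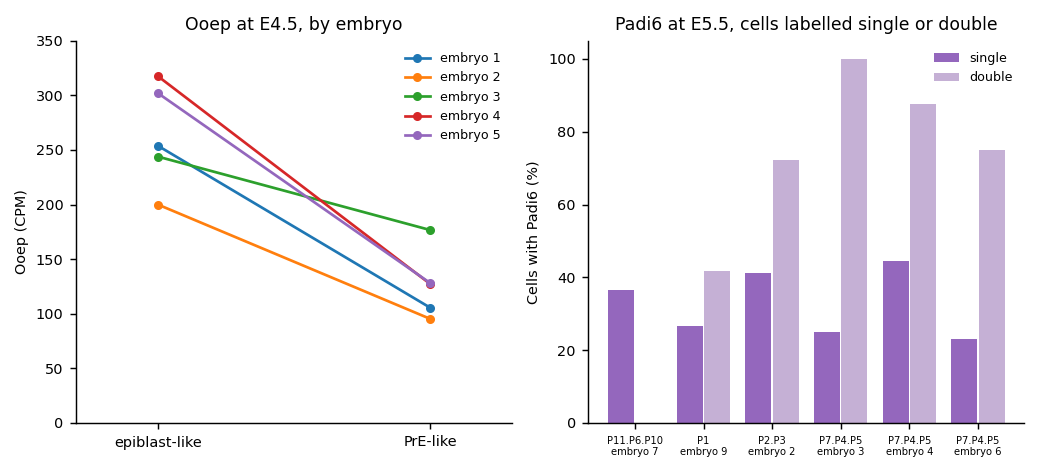
Left, Ooep (CPM) in epiblast-like and PrE-like sums of each E4.5 embryo, joined by a line per embryo, which falls in 5 of 5. Right, share of E5.5 epiblast-like cells with Padi6 (%) among cells labelled single (dark) and double (light), for the 6 embryos with at least 4 doubles, higher in doubles in 5 of them.

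Tle6, a Groucho-family protein of the complex, was low at every stage. At E3.5 it had 5.33 ± 5.04 CPM (n = 10; from 0 to 16.98, median 5.23) and counts in 24 of 99 cells (24.2%, interval 16.2 to 33.9%). Epiblast-like sums of E4.5 embryos 1 to 5 had 6.19, 0, 0, 5.88 and 11.6 CPM (mean 4.74 ± 4.89). PrE-like sums of the same embryos had 10.7, 3.52, 12.8, 3.46 and 7.97 CPM (mean 7.68 ± 4.18). PrE-like was the higher in 3 of 5 embryos, and the groups overlapped. The log2 fold change between the lineages was -0.66 (SE 1.11, adjusted p = 0.765, edgeR). At E5.5 the level was 4.14 ± 3.00 CPM, in 34 epiblast-like cells (13.1%). At E6.5 it was 0.637 ± 1.25 CPM in epiblast-like sums, with counts in 6 cells (3.26%), and 3.59 ± 6.51 CPM in endoderm-like sums, with 6 of 41 cells, with 17.5 CPM in embryo 6 of plate P2.

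Nlrp5, a NLR-family protein also called MATER, was absent or nearly so. No count was found in 99 cells of E3.5, which allows a share of up to 3.03%, nor in 250 cells of E6.5 (up to 1.2%). At E4.5 it had 78 counts in 3 cells, and at E5.5 it had 271 counts in 3 cells, most of them in 1 cell of embryo 8 on plate P11.P6.P10.

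Only some of the 7 genes could enter the comparisons across all genes. In the E4.5 lineage comparison Ooep and Tle6 passed the filter on low counts and the other 5 did not, and at E6.5 Ooep alone passed. In the fit across stages Nlrp5 and Trim43a did not pass.

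Between plates of E3.5, no difference of a member passed the test. Ooep was at 14.03 CPM in the 5 embryos of plate P8 and at 34.1 CPM in the 4 of plate P9 (-2.05 on the log2(CPM + 1) scale, exact two-sided permutation p = 0.127, adjusted 0.381). Tle6 was at 2.23 and 8.75 CPM (-1.99, exact permutation p = 0.0635, adjusted 0.381). For Trim43c the means were 326 and 366 CPM (-0.40, exact permutation p = 0.540, adjusted 0.810), and for Padi6, Trim43b and the Trim43 sum the exact permutation p lay between 0.540 and 1. The smallest p that 5 against 4 embryos allow is 0.0159, and as 6 values were tested, the adjusted p of 1 value alone could not go below 0.0952. Embryos of plate P8 gave 3 or 4 cells each and those of plate P9 11 to 28.

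In the E3.5 ICM counts of different members were spread over different cells in part. Counts of Ooep and Tle6 met in 15 cells, while 58 had Ooep alone and 9 had Tle6 alone, and Spearman's rho was 0.0185 over 99 cells. Ooep and Trim43c had a rho of 0.204, and Trim43b and Trim43c, which share sequence, one of 0.438 (0.516 in the 74 cells of plate P9). Ooep, Tle6 and the Trim43 rows were also set against the mean log2(CPM + 1) over epiblast, endoderm or trophectoderm markers. Among these, the rho of largest size was 0.234, of the Trim43 sum with epiblast markers. These are weak values in sparse counts from cells that share embryos and libraries. Of 6 oocyte and granulosa markers, Amh and Fshr were at 0 at E3.5 and the summed level was 2.98 to 93.5 CPM by embryo.

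The genes most like a member over the 50 embryo and class sums were sought among 8756 genes with at least 5 CPM at E3.5, by Pearson's r of log2(CPM + 1). For Ooep they were E330020D12Rik (r = 0.78), Cox6c (0.77) and Dppa5a (0.76). For the Trim43 sum they were Gm13102, AC134841.1 and Pramel6, with r from 0.992 to 0.996, and for Trim43c Gm13102, Gm5612 and AC134841.1. Trim43b went most with AC164085.1 (0.88), Eif4e1b (0.85) and 9530008L14Rik (0.85). Values were lower for Tle6, with Mgl2 (0.66) first, followed by Pltp and Slc39a3, and for Padi6, with C530005A16Rik (0.69) first, followed by Bax and Nudt6. Padi6 met the level for this search through the 125.3 CPM of 1 embryo. Over the 99 E3.5 cells the closest genes by Spearman's rho were Gm10709, Rps7 and Rps2 for Ooep (0.42 to 0.51), Hirip3, Trim43b and Gm6793 for Trim43c (0.43 to 0.47), and Trim43c, Barx2 and Clstn3 for Trim43b (0.41 to 0.44). For Tle6 they were Otx2, Jak3 and Krba1 (0.35 to 0.38), for Padi6 Bicd2, Fam102b and Cdk17 (0.39 to 0.46), and for the Trim43 sum Hirip3, Trp53i11 and Gm6793 (0.39 to 0.46). The sums share embryos, plates and depth, and no p is given. They also span the stages by whose counts the members were chosen, and the genes searched were kept for their E3.5 level. Any gene high at E3.5 and near 0 later would thus reach a high r with the Trim43 rows, so these values only describe a shared stage pattern.

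Companion genes show where other genes of the complex and of the families stood. Their lists were made with earlier results of these data known. The filter on low counts was applied over all stages of the fit at once, so a gene near 0 at a stage could pass through another. Counts and medians of the lists are thus given as a description. Between E3.5 and E4.5 epiblast-like sums, 9.59% of 13528 genes were called lower and 13.4% higher (edgeR, limits of 0.05 on the adjusted p and 1 on the log2 scale). Between E3.5 and PrE-like sums the shares were 6.57% lower and 13.2% higher. Khdc3, the KH-domain partner in the complex also called Filia, stood at 4178 ± 619 CPM at E3.5. It fell to 687 ± 324 CPM in epiblast-like cells (log2 fold change -2.64, SE 0.891, adjusted p = 0.0278, edgeR, but 0.0549 to 0.0793 without E4.5 embryo 1, 2, 3 or 5) and to 180.3 ± 119.3 CPM in PrE-like cells (-4.58, adjusted p = 0.00101). Zbed3, another reported partner, rose from 0.644 to 11.4 CPM in epiblast-like cells (3.95, adjusted p = 0.00784). Nlrp4f, a relative of Nlrp5, was called within E4.5, at 53.7 ± 16.2 CPM in epiblast-like and 6.10 ± 9.30 CPM in PrE-like cells (3.17, SE 1.01, adjusted p = 0.04998, edgeR). That call lies at the limit of 0.05, and its outcome without single embryos is not given here. Nlrp2 had no count before E6.5 and was not tested. Of the 3 partners tested, 1 was lower and 1 higher in epiblast-like cells (median 2.17) and 1 was lower in PrE-like cells (median -0.99).

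Of the 5 KH genes near Ooep in family, of which Khdc3 is also among the partners above, 4 were called lower and 1 higher in E4.5 epiblast-like cells than at E3.5, with a median log2 fold change of -4.02 against 0.00 over all genes (-3.30 with genes at 0 counts held at their bound). The riser was Dppa5a, a KH-domain gene of pluripotent cells, from 4331 ± 1574 to 10766 ± 1479 CPM (1.25, adjusted p = 0.0182). Khdc1a went from 96.7 to 6.09 CPM (-4.02, adjusted p = 0.00369). Khdc1b and Khdc1c had 0 counts in epiblast-like sums, at least 9.88-fold and 13.3-fold lower. The call of Khdc1b was lost without any 1 of the 5 E4.5 embryos (adjusted p = 0.0607 to 0.0735, edgeR), and without 5 of the E3.5 embryos it was under the filter on low counts, as was Khdc1c without E3.5 embryo 6. In PrE-like sums 4 of 5 were lower and Dppa5a was not called (4331 at E3.5 and 6092 CPM), with a median of -7.12 (-5.42 with genes at their bound) against 0.13 over all genes. Between E3.5 and E4.5 the mean of Ooep was thus higher and that of Khdc3 lower at the later stage.

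**Figure D5:**
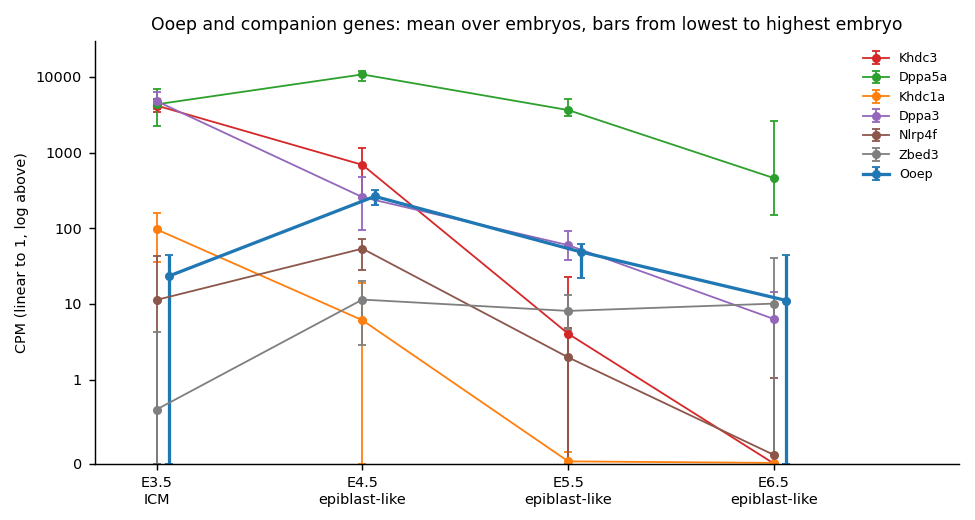
Mean level (CPM, axis linear up to 1 and logarithmic above) of Ooep, in thick blue, and of 6 companion genes over embryos from the E3.5 ICM through epiblast-like cells of E4.5 to E6.5, with lines from the lowest to the highest embryo. Ooep and Dppa5a are highest at E4.5, whereas Khdc3, Khdc1a and Dppa3 are highest at E3.5.

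Oocyte and maternal-effect genes other than the members were mostly too low to test, since 6 of 35 passed the filter. Of these 6, 1 was called lower in E4.5 epiblast-like cells (median -1.34) and 2 in PrE-like cells (median -2.19). Dppa3, a maternal-effect gene also made in the ICM, went from 4781 ± 964 to 257.4 ± 142.03 CPM in epiblast-like cells (-4.25, adjusted p = 1.16e-05) and to 63.2 CPM in PrE-like cells (-6.27, adjusted p = 4.74e-08). Figla had counts in 2 E3.5 embryos, with 14.2 CPM in embryo 4 of plate P8, and was at 0 in PrE-like sums, at least 41.9-fold lower (adjusted p = 0.0400). Without that embryo its E3.5 mean fell from 1.82 to 0.437 CPM and the bound to 10.1-fold, and it was under the filter without either of the pair. The call was also lost without any 1 of the E4.5 embryos (adjusted p = 0.0672 to 0.0867, edgeR). Of the 26 distinct rows on the list of cleavage-stage zygotic genes, 5 could be tested, and 2 were lower among epiblast-like sums (median -3.55) and 4 among PrE-like sums (median -5.42). Spic went from 591 ± 215.7 to 6.76 CPM in epiblast-like and 0.114 CPM in PrE-like cells (adjusted p = 2.43e-07 and 4.62e-10), and Crxos from 1025 ± 151.9 to 21.98 and 37.8 CPM. Obox6 was at 29.5 CPM at E3.5 and at 0 in PrE-like cells, at least 681-fold lower, or 439.7-fold without the cells of plate P11.P6.P10. Sp110 went from 2.50 to 0.0422 CPM in PrE-like cells, a call that was lost without E4.5 embryo 1, 2, 3 or 4 (adjusted p = 0.0656 to 0.0731, edgeR).

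From E4.5 to E5.5 in epiblast-like cells, 3.11% of genes were called lower and 3.71% higher. Khdc3 fell to 4.03 CPM (-7.54, adjusted p = 2.45e-06), Nlrp4f to 1.96 CPM, Dppa5a to 3639 CPM and Khdc1a to 0.0273 CPM (from 6.09, or from 2.86 without embryo 1). Among oocyte genes 3 of 6 tested were lower, including Tcl1, from 109.6 ± 54.9 to 0.618 CPM (-7.54, adjusted p = 2.19e-06), Dppa3, to 59.8 CPM, and Nlrp4e. The call of Dppa3 was lost without E4.5 embryo 4 (adjusted p = 0.0589, edgeR). Nlrp4e rested on 1 E4.5 embryo, since embryo 5 held all of its counts (11.2 CPM) and without it the adjusted p was 1. Among zygotic genes 3 of 5 were lower, namely Spic, at least 475-fold lower at 0 counts (166.01-fold without E4.5 embryo 4), Obox6 and Crxos. The E4.5 mean of Obox6 was 34.6 CPM, or 9.82 without embryo 2. No tested gene of these lists was called higher. From E5.5 to E6.5, 4.81% of genes were called lower and 4.21% higher. Khdc3 was then at 0 counts, at least 185.97-fold lower than its 4.03 ± 7.63 CPM at E5.5, or 64.3-fold lower than the 1.39 CPM left without embryo 3 of plate P7.P4.P5. Nlrp4f fell to 0.103 CPM and Dppa5a to 459 ± 661 CPM (-2.89, adjusted p = 5.45e-08). Zp3, a zona pellucida gene, fell from 9.48 to 0.171 CPM (-5.41, adjusted p = 1.08e-05), as did Nlrp4c, from 9.35 to 0.881 CPM, and Dppa3, to 6.30 CPM. Tcl1 and Figla were at 0 counts, at least 28.5-fold and 78.6-fold lower, or 16.3-fold and 49.9-fold without E5.5 embryo 2 of plate P2.P3, and without this embryo Figla was under the filter. Sp110 went from 0.737 to 0.0109 CPM, but from 0.237 CPM without embryo 8 of plate P11.P6.P10, where the call was lost (adjusted p = 0.0593, edgeR). In the oocyte list 5 of 6 tested genes were lower at this step, with a median of -4.31 (-4.02 with genes at their bound) against 0.04 over all genes. Those near 0 at E6.5 had passed the filter through an earlier stage, so these values only describe the list.

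In the families of Padi6 and Tle6, calls were few. Padi1 to Padi4 had means of 0 to 3.09 CPM in the E3.5 ICM and in epiblast-like sums of every later stage, and none of the 4 was called at any step between stages. Their median log2 fold change from E4.5 to E5.5 was 7.44, or 3.29 with genes at their bound, since 3 of the 4 were at 0 in 1 of the groups. At E5.5, where Padi6 was highest, their levels were 0.132 to 3.09 CPM. Of the Groucho family, 4 of 5 genes were tested. Tle4 rose from 26.8 ± 14.9 CPM at E3.5 to 183.7 ± 54.5 CPM in E4.5 epiblast-like cells (2.72, adjusted p = 9.06e-06) and Aes from 5.47 to 33.5 CPM (2.56, adjusted p = 0.00309). Tle1 and Tle3 were not called, and the median was 1.73. None of the 4 was called in PrE-like cells or at the later steps. Between endoderm-like and epiblast-like cells of E6.5, 4 Groucho genes and 1 gene of each other list but the peptidylarginine deiminases could be tested, and none was called.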

How the data were processed

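The authors deposited 1 table of raw counts per gene and cell, made from 100-base paired-end Smart-seq2 reads of polyadenylated RNA on GRCm38. The submitters' processing notes name Trim Galore 0.4.3 and HISAT2 2.0.5, and the authors counted in SeqMonk from primary alignments, dropping those whose mapping quality was under 20. All 721 columns were used. The table lists no rows on X, Y or the mitochondrion.

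Cells were clustered on 10715 genes, with 85 rows (members and companion genes) held out, into 8 clusters and, at E6.5, 5, which were named from marker genes. No doublet caller was run. Counts of at least 3 cells of a class were summed by embryo, since cells are not replicates. All genes were fitted with edgeR 4.0.16 (R 4.3.3, TMM, filterByExpr, quasi-likelihood), with DESeq2 1.42.0 as an alternative. Plates were compared by exact two-sided permutation of log2(CPM + 1). Coding sequences were aligned with mafft 7.526. Clusters came from scikit-learn 1.9.0, exact tests from scipy 1.17.1 and figures from matplotlib 3.10.9, in Python 3.11.15. On simulated counts with 200 changed genes, the E4.5 lineage fit recovered 179 with 7 false calls among 10926 genes. The planted changes were large, with a median absolute log2 fold change of 2.98 as fitted. They were put into genes that were not sparse, at 1 fixed spread and with no embryos shared. How well the fit recovers smaller changes, such as that of Ooep at E4.5, was not tested.

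The members and lists were chosen with earlier results of these data known. Named genes were the members, the 3 genes most like each member with at least 5 CPM at E3.5, and every companion gene called. Lineage replicates share embryos, so a fit with the embryo as a replicate block was run as an alternative. Other alternatives were the normalization, the filter on low counts, the pseudocount, Ward clustering, thinning, leaving out doubles, cells titled E6.75 or single embryos.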

Additional observations from a re-analysis of the deposited data

Results flagged for a closer look

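In 26 groups of 4 to 10 embryos, the highest or lowest embryo was compared with its neighbour by Dixon's criterion. Its chance rate of about 1 in 20 groups holds for normally distributed values, not for levels with many zeros. A group with counts in 1 embryo alone always meets it. At E3.5, Padi6 stood apart in embryo 1 of plate P8 (125.3 CPM), Trim43b in the cells of plate P11.P6.P10 with no embryo number (335.5 CPM) and Tle6 in embryo 8 of plate P9 (16.98 CPM). At E4.5, PrE-like cells of embryo 3 on plate P2 were the only ones with Nlrp5 (0.690 CPM) and with Trim43b, and so with a Trim43 sum (0.518 CPM for both). At E5.5, embryo 8 of plate P11.P6.P10 was highest for Nlrp5 (5.33 CPM) and for Trim43b (0.0974 CPM), and embryo 4 of plate P7.P4.P5 for Trim43c and for the Trim43 sum (0.319 CPM for both). In endoderm-like cells of E6.5, Tle6 was highest in embryo 6 of plate P2 (17.5 CPM). Several of these values rest on 1 cell each.

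Outside the sums, the row labelled Trim43a had 47 counts in 1 endoderm-like cell at E6.5, and Ooep had 15 counts in the 3 unnamed cells at E5.5.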

How the results depend on the processing

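Ooep at E4.5 kept its direction and an adjusted p under 0.05 (edgeR or DESeq2) in every alternative run, with log2 fold changes of 1.01 to 1.27 without 1 embryo and 1.11 with the embryo as a replicate block (adjusted p = 0.00654). For Tle6 the replicate block gave -1.42 (adjusted p = 0.598). The E4.5 lineages had 806 genes past the limits, 883 with the replicate block and 681 to 775 without 1 embryo. The E6.5 classes had 1009 such genes, 1661 with no filter on low counts, 549 with Ward clustering, 558 with the replicate block and 566 without cells titled E6.75. From E5.5 to E6.5 there were 1221 genes and 9 companion genes, and with no filter 2971 and 20. The replicate block changed no call of a member. Of 40 companion calls between stages, 29 were kept without each embryo in turn, an alternative that for embryos of E3.5, E5.5 and E6.5 was chosen after seeing the data. Of the other 11, 7 had an adjusted p over 0.05 (edgeR) without at least 1 embryo and 6 were at least once under the filter.

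Some plate differences, none past the test, changed sign. That of Padi6 at E3.5 (0.55) was -0.94 without doubles, -0.19 with a pseudocount of 0.1 and -0.84 to 0.98 without 1 embryo. That of Trim43b (-0.074) was -0.97 to 0.76 without 1 embryo. That of Ooep at E6.5 (0.20) was -0.16 without doubles, -0.064 after thinning and -0.55 to 0.63 without 1 embryo. The cause was not tested. Among alternative values of the members' levels and shares of cells, 14 of each moved beyond the spread or the interval. Cells with few counts limit what a count of 0 can show, and E3.5 cannot be told apart from its plates. Plate name P11.P6.P10 recurs at E5.5, but the labels do not say whether those cells were on the same plate.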
